A study of Ovis aries with 15 samples.

Results

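A set of 100 oligonucleotide probes on an ovine gene expression array carried no gene symbol and gave lower signal in fetal kidney cortex after hypoxia than after normoxia, both with and without ketamine. A probe counts as unnamed where the array design repeats its sequence identifier in place of a gene name. The members were the unnamed probes well above background (the scanner software's flag) on at least 3 of 15 arrays. Their mean log2 signal, taken relative to each array's 75th percentile, also had to be lower by 0.6 or more in the hypoxic group than in its normoxic group, both in fetuses given saline vehicle and in fetuses given ketamine. Of 15008 probes that are not controls, 12927 were detected often enough to be tested, and 11544 of these were unnamed. The limit was met by 618 unnamed probes in the vehicle arm and 263 in the ketamine arm, and 100 met it in both. Another 24 probes that do carry a gene symbol met it in both arms and are not among the members. No member had a description naming a ribosomal or respiratory chain product, so none was set aside on that ground.

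The RNA was extracted from the renal cortex of sheep fetuses with chronic catheters, at 125 ± 3 d of gestation, with term at 145 to 147 d. The ewe breathed a low-oxygen gas mixture or air for 30 min. Ketamine at 3 mg/kg or saline was given intravenously to the fetus 10 min before that period, and the cortex was taken 24 h after its start. There were 3 fetuses in normoxia given vehicle, 4 in normoxia given ketamine, 4 in hypoxia given vehicle and 4 in hypoxia given ketamine. Fetuses were assigned at random, and total RNA of each was hybridised to 1 single-colour array. All fetuses, the normoxic ones included, carried catheters. The cortex was measured as bulk tissue, so fewer cells of a type and less RNA per cell cannot be told apart.

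Most members rest on expressed sequence tags (ESTs), which are single-pass reads of cDNA clones. An EST shows that a transcript was present in the library it was cloned from, often without telling which gene made it, and arrays designed before a species had an annotated genome carry many such probes. The kidney cortex holds the glomeruli, where blood is filtered, and the proximal tubules, which reabsorb most of the filtrate with a high oxygen demand. It also holds vessels, interstitial fibroblasts and resident immune cells, among them the macrophages and T cells that several of the better described probes below concern.

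For 95 of the 100 members the description gives only the cDNA library of the clone, for 1 it gives "Unknown", and for 4 it names a product. These 4 products are T19, a scavenger receptor that sheep γδ T cells carry on their surface, the delta chain of the T cell receptor, the α1 chain of collagen XVI, which decorates collagen fibrils, and cGMP-dependent protein kinase 1, which relaxes smooth muscle in response to nitric oxide. Probes that share bases are shown together here, since their values are set side by side below. The T19 member and a second T19 probe outside the members share a run of 40 bases, in capitals, and so do the T cell receptor delta member and a second delta probe, with a run of 43 bases. Both pairs are shown whole, 5′ to 3′, as the array files give them.
A_70_P041466: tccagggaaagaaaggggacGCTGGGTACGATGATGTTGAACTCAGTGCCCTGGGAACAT
A_70_P041471: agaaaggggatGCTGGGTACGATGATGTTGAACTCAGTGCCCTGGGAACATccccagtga
A_70_P016976: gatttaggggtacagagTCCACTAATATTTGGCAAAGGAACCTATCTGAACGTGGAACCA
A_70_P016426: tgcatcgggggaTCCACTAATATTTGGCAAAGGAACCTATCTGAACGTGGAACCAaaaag

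For the collagen XVI member and for the EST members that the results turn on, a stretch of 30 bases of each probe is shown so that the probe can be looked up in other sheep sequence. The first line is the collagen XVI member, and the second is an EST member that the array design places in one transcript cluster with a major histocompatibility complex (MHC) gene. A_70_P022951 and A_70_P028071 stand for large differences at good signal, A_70_P057426 for the brightest member, A_70_P011986 for the dimmest ones and A_70_P062991 for a pattern carried by a pair of arrays.
A_70_P029441: caggatgaagacagccatgtggtagccttg
A_70_P049156: acggacttgctagatgactagagctatttt
A_70_P022951: aagacacgggctatcaaaacctcatcaact
A_70_P028071: taagtgagcacctacatccttactaagatt
A_70_P057426: gttcttcatgttttgagcactttatgatga
A_70_P011986: tacttgggtgaccatgtgttgctttttgtt
A_70_P062991: agtgcatgtgagtatttacatgcaggggta

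A polyadenylation hexamer, AATAAA or ATTAAA on the strand of the probe, occurred in 8 members, against 8.1% of all unnamed tested probes. Such a hexamer usually lies close to the 3′ end of a transcript. It is in capitals in 3 of the members described below.
A_70_P066676: gcacacctatagccATTAAAtactttgcca
A_70_P031911: tgtaggcaattcagacagAATAAAtatgtg
A_70_P038636: atgaagtccaagAATAAAcatgttcaacga

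The members were about as rich in G and C as other unnamed probes, with a median of 41.7% against 43.3%. A reading frame open over the whole 60 bases was present in 78 members, against 81.9% of unnamed probes. The array design placed 62 members in a transcript cluster, against 65.9% of unnamed probes, and no pair of members shared a cluster or an identifier. Each member therefore stands for its own annotated sequence, although different clusters can still belong to 1 gene.

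All values below are log2 signals relative to the array's 75th percentile, so 0 is the level of that percentile, and a difference is hypoxia minus normoxia. A probe's signal depends on its sequence as well as its transcript, so signals of different probes are given as brightness and not as relative abundance. The members were selected on these hypoxia differences, which are therefore given as a description with no test read from them. Both differences were -1 or lower for 23 members. Over the members the difference ranged from -3.20 to -0.60 in the vehicle arm, with a median of -0.93 against -0.05 over all tested probes. In the ketamine arm it ranged from -3.37 to -0.61, with a median of -0.80 against -0.02. The linear model over all probes (limma, unadjusted p at or below 0.05) called 57 members lower in the vehicle arm, where it called 10.4% of all tested probes lower. It called 57 lower in the ketamine arm, where it called 4.97% lower. Without the 3 arrays, 2 normoxic and 1 hypoxic, on which a placental lactogen probe was above background, it called 24. A placental transcript is not part of the labelled tissue. That fit has fewer arrays, and the share of all tested probes it called was not counted. Its median member difference with ketamine was -0.75, beside -0.80 with all arrays. The part of placental signal in the lower count was not tested. With all arrays, the calls coincided in both arms for 45 members and were absent in both for 31. After Benjamini-Hochberg adjustment in limma, 1 member was called in the vehicle arm, where 0.0155% of all tested probes were called. In the ketamine arm 0 were called, and the smallest adjusted p of a member was 0.149. The member called is A_70_P000721 (adjusted p 0.0126), which was well above background on 0 hypoxia vehicle arrays and is described below. The counts of called members follow from the choice of members.

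Members near the limit differ little from those outside it. Just inside lie A_70_P044841, with differences of -0.601 with vehicle and -0.665 with ketamine, and A_70_P018376, with -0.627 and -0.617. Just outside lie A_70_P044536, with -0.603 and -0.598, and A_70_P070641, with -0.635 and -0.591.

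Seen array by array, the members together were low on every hypoxic array. The median member stood at 0.07, 0.10 and 0.04 relative to the normoxic mean on the normoxia vehicle arrays and at 0.02, 0.07, -0.05 and -0.14 on the normoxia ketamine arrays. It stood at -0.78, -0.58, -0.82 and -1.09 on the hypoxia vehicle arrays and at -1.14, -1.0, -0.58 and -0.71 on the hypoxia ketamine arrays. Over all unnamed probes the same median stayed between -0.11 and 0.02. The members differed in which array was lowest. The 4th hypoxia vehicle array was lowest for 23 members, the 1st hypoxia ketamine array for 19, the 2nd hypoxia ketamine array for 15 and the 3rd hypoxia vehicle array for 13.

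T19 was covered by 7 tested probes. The member A_70_P041466 (Y15217) read -2.35, -3.42 and -3.72 in normoxia with vehicle and -2.34, -4.41, -3.27 and -3.66 in normoxia with ketamine. It read -4.80, -3.34, -3.72 and -4.67 in hypoxia with vehicle and -5.57, -5.81, -3.03 and -2.08 in hypoxia with ketamine. Its differences were -0.97 with vehicle and -0.70 with ketamine. The groups overlapped in both arms, and the highest of all 15 values came from the 4th hypoxia ketamine array. That array also gave the top value of the probe that shares the 40 bases, A_70_P041471, at -1.37. The 1st and 2nd hypoxia ketamine arrays gave that probe's lowest values, -5.11 and -4.94. The other 6 T19 probes, which are not members, were all below 0 in both arms, with differences of -1.02 to -0.40 with vehicle and -0.57 to -0.09 with ketamine, and none was called in either arm. With the 3 arrays on which a placental gene was detected left out, the ketamine difference of the member was -0.09. The T19 probes outside the members then ran from -0.23 to 0.3 in the ketamine arm. With the background corrected by a fitted model in place of the scanner's, they ran from -0.15 to 0.23 in that arm.

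The delta chain pairs with the gamma chain to form the receptor of γδ T cells. Its member A_70_P016976 (AJ005907) was well above background on 5 of 15 arrays. It read -8.60, -6.73 and -5.38 in normoxia with vehicle and -7.41, -6.37, -8.20 and -6.43 in normoxia with ketamine. It read -5.20, -8.85, -7.77 and -9.23 in hypoxia with vehicle and -9.50, -8.01, -9.16 and -8.16 in hypoxia with ketamine. The highest value of all was on a hypoxic array, the 1st with vehicle, and the groups overlapped in both arms. The probe that shares 43 of its bases, A_70_P016426, was well above background on 0 arrays, ranged from -9.23 to -7.16 and was not tested. The other 13 tested T cell receptor probes had median differences of 0.02 and -0.05, with 6 below 0 with vehicle and 8 with ketamine. Of these, 1 gamma chain probe was called higher with vehicle (A_70_P006881, 0.38), and no other was called in either arm. All 5 probes of CD3 chains, which every T cell receptor needs to signal, were above 0 in both arms, with medians of 0.38 and 0.84, and none was called. In the main fit the T19 probes were thus below 0 and the CD3 probes above 0, both relative to normoxia. The T19 list was opened by a member chosen for low hypoxic signal. The other T19 probes had correlations with that member over the arrays of 0.727 to 0.986. Their sign is therefore not independent of the choice of members, and the contrast between the lists was not tested. With ketamine the sign of the T19 probes depended on the setting, as given above.

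cGMP-dependent protein kinase 1 was represented by the member A_70_P026766 (AY232599), well above background on 9 arrays. Its normoxic values were -7.10, -6.67 and -6.32 with vehicle and -6.91, -6.29, -6.09 and -6.63 with ketamine. Its hypoxic values were -7.41, -7.51, -9.33 and -6.60 with vehicle and -7.80, -7.02, -6.79 and -8.20 with ketamine. Hypoxic and normoxic values overlapped in both arms, in the ketamine arm only through the 1st normoxic and the 3rd hypoxic array, and the differences were -1.02 with vehicle and -0.97 with ketamine. On the 1st slide alone the vehicle difference was -0.17, and on the 2nd it was -2.05. With the background corrected by a fitted model (normexp) the ketamine difference was 0.25, above 0. For a pair of probes of the beta form of the same kinase the differences were -0.95 and -0.76 for A_70_P041061 and -1.06 and -0.66 for A_70_P041062, and neither was called in either arm. Their vehicle differences were -1.9 and -1.99 on the 1st slide and 0.25 and 0.14 on the 2nd, the reverse of the member's split. Their correlations with the member over the arrays were -0.0224 and 0.00585. A_70_P041061 ranged from -3.18 to -1.08 over the normoxic arrays and from -4.92 to -2.0 over the hypoxic ones, so its groups overlapped as well.

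The collagen XVI member A_70_P029441 (TC15278) was well above background on all 15 arrays. It read -3.39, -1.97 and -2.79 in normoxia with vehicle and -4.25, -2.48, -3.47 and -3.34 in normoxia with ketamine. It read -3.54, -3.76, -4.68 and -3.13 in hypoxia with vehicle and -4.26, -4.41, -3.67 and -4.46 in hypoxia with ketamine. The differences were -1.06 (SE 0.44) and -0.81 (SE 0.41), and a single normoxic or hypoxic array made the groups overlap in each arm. Of 15 other tested collagen probes, found by description or symbol, 12 were below 0 with vehicle and 11 with ketamine. In each arm 4 were called lower, where 10.4% of all tested probes were called lower with vehicle and 4.97% with ketamine. Those called with vehicle were all probes of collagen III (A_70_P006991, A_70_P016306, A_70_P016307 and A_70_P048191). The last 3 of them were called with ketamine too, beside a probe of the α1 chain of collagen IV (A_70_P047986). A_70_P016306 and A_70_P016307 carry the description of the same clone, so they are not separate readings. The differences of the 15 probes were smaller in size than the member's. They ran from -0.59 to 0.11 with vehicle (median -0.26) and from -0.56 to 0.41 with ketamine (median -0.19).

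An EST member shares its transcript cluster with DQA1, which encodes the alpha chain of an MHC class II molecule that presents peptides to T helper cells. This member, A_70_P049156 (EE746457), read -1.06, -2.99 and -1.10 in normoxia with vehicle and -0.54, -2.84, -1.52 and -1.03 in normoxia with ketamine. It read -1.81, 1.42, -0.95 and -9.15 in hypoxia with vehicle and -7.45, -2.17, -8.12 and -1.65 in hypoxia with ketamine. The 3 values below -7 came from the 4th hypoxia vehicle array and the 1st and 3rd hypoxia ketamine arrays, and the highest value of all came from the 2nd hypoxia vehicle array. The DQA1 probe of the same cluster, A_70_P016751, had its 3 lowest values on these arrays too, at -9.26, -9.75 and -9.41, and its other values lay between -3.46 and 1.06. The differences were -0.90 with vehicle and -3.37 with ketamine for the EST member and -0.65 and -3.67 for the DQA1 probe. A second DQA1 probe outside the cluster, A_70_P053731, showed no such low arrays. It ranged from -1.53 to 1.30 and had differences of 1.0 and 0.76. Of 7 class II probes of other genes, 0 were below 0 with vehicle and 1 with ketamine, with medians of 0.61 and 0.74. None of the 7 was called with vehicle, and 1 was called higher with ketamine, a probe of DRB1 (A_70_P024146, 1.52). The EST member's vehicle difference was 1.27 without the 4th hypoxia vehicle array, 0.13 under normexp and 0.11 in the authors' deposited table.

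The brightest EST members were well above background on every array. A_70_P057426 (EE751669) had the highest mean signal of any member, 4.47. It read 4.81, 5.07 and 5.07 in normoxia with vehicle and 4.76, 5.18, 5.18 and 5.03 in normoxia with ketamine. It read 3.96, 4.76, 3.82 and 3.06 in hypoxia with vehicle and 3.75, 3.33, 4.73 and 4.58 in hypoxia with ketamine. Every hypoxic value lay below every normoxic one, although the highest hypoxic and the lowest normoxic value both round to 4.76. The differences were -1.09 and -0.94, and under normexp they were -1.07 and -1.03. A_70_P066676 (EE844197) was nearly as bright. It read 4.63, 4.60 and 4.49 in normoxia with vehicle and 4.63, 4.84, 4.65 and 4.42 in normoxia with ketamine. It read 3.07, 4.26, 3.41 and 3.84 in hypoxia with vehicle and 4.08, 3.99, 3.16 and 4.08 in hypoxia with ketamine. All 8 hypoxic values were again below all 7 normoxic ones, with differences of -0.93 and -0.81. Other bright members were A_70_P069651 at a mean of 3.36, A_70_P002476 at 2.76 and A_70_P005076 at 2.53. Their differences in the vehicle arm were -0.74, -0.68 and -0.66.

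The members with the largest differences had lower signal and more scatter. A_70_P022951 (EE855739) read 1.26, 1.74 and -0.75 in normoxia with vehicle and 1.46, 1.76, 0.02 and -1.89 in normoxia with ketamine. It read -1.76, -1.62, -3.61 and -2.81 in hypoxia with vehicle and -2.78, -2.62, -0.74 and -1.40 in hypoxia with ketamine. The groups overlapped only in the ketamine arm, through the 4th normoxia ketamine array. The means were 9.18-fold lower with vehicle and 4.67-fold lower with ketamine, or -3.20 (SE 0.87) and -2.22 (SE 0.81) on the log2 scale. Its normoxic values split by slide: the 4 arrays on the 1st slide read 1.26 or more and the 3 on the 2nd slide 0.02 or less. Within the 1st slide the differences were -3.72 and -3.62, and within the 2nd, which holds 1 normoxia vehicle array, they were -1.93 and -0.82. A_70_P055186 showed the same split, with differences of -3.37 and -3.05 on the 1st slide and -0.33 and -0.35 on the 2nd. A_70_P019706 (EE787204), at -2.88 and -3.11 over all arrays, turned sign in the ketamine arm of the 2nd slide, at 0.33. The part of the slide in these differences was not tested.

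A_70_P028071 (EE849688) was large in both arms without that split. It read -0.23, 0.41 and 0.38 in normoxia with vehicle and 0.93, 0.67, 0.69 and 0.25 in normoxia with ketamine. It read -2.51, -1.83, -1.60 and -1.66 in hypoxia with vehicle and -3.07, -2.80, 0.01 and -0.27 in hypoxia with ketamine. Hypoxic and normoxic arrays did not overlap within either arm, but the 3rd and 4th hypoxia ketamine arrays lay close to the normoxic ones. The means were 4.25-fold and 4.50-fold lower, with slide values between -2.44 and -1.84. A_70_P038636 (FE023257), from a rectum library, also did not overlap in either arm, with differences of -1.62 and -1.32. A_70_P000816 (FE038106), from a Peyer's patch library, ranged from -2.66 to -0.12 in normoxia and from -7.96 to -0.16 in hypoxia. It overlapped in both arms, with differences of -1.51 and -3.07.

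No overlap between hypoxic and normoxic arrays, with the hypoxic ones lower, was found for 41 members in the vehicle arm, where 9.59% of all tested probes met it, and for 30 in the ketamine arm, where 3.69% did. It held in both arms for 19 members, against 1.26% of all tested probes, and in neither arm for 48. All 8 hypoxic values lay below all 7 normoxic values for 11 members, against 0.588% of all tested probes. Since the rule chose probes with low hypoxic means, these shares describe the members and test nothing.

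The 11 include small differences with little scatter. A_70_P004386 (EE854466) read -1.59, -1.29 and -1.37 in normoxia with vehicle and -1.57, -1.47, -1.37 and -1.61 in normoxia with ketamine. It read -2.22, -2.06, -1.85 and -1.94 in hypoxia with vehicle and -2.19, -2.34, -2.07 and -2.17 in hypoxia with ketamine. The lowest normoxic and highest hypoxic values were -1.61 and -1.85, so a difference near the limit separated all arrays. A_70_P019116 (EE839871) ranged from 0.36 to 0.75 in normoxia and from -0.47 to 0.15 in hypoxia. A_70_P064416 (EE804707) ranged from 0.61 to 1.21 in normoxia and from -0.28 to 0.45 in hypoxia. A_70_P057701 (DY482065), from a fracture callus library, ranged from -1.33 to -0.96 in normoxia and from -2.01 to -1.48 in hypoxia. Beside these and the bright A_70_P057426 and A_70_P066676, the 11 hold A_70_P000721, A_70_P009476, A_70_P007106, A_70_P031681 and A_70_P033606.

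Some members had 1 hypoxic array in each arm far below their other values. These were picked after their values were seen. A_70_P062991 (EE859776) read -4.97 on the 1st hypoxia vehicle array and -4.59 on the 1st hypoxia ketamine array. Its other 6 hypoxic values lay between -0.26 and 1.20, beside normoxic values of 0.40 to 1.01, and the differences were -1.75 and -1.31. A_70_P031911 (EE757292) read -5.37 on the 4th hypoxia vehicle array and -4.92 on the 1st hypoxia ketamine array, with all other values from -1.33 to -0.14. A_70_P011946 (FE031554) read -6.82 on the 2nd hypoxia vehicle array and -7.97 on the 2nd hypoxia ketamine array, with all other values from -1.78 to -0.01. In the vehicle arm its hypoxic values were at most -1.13 and its normoxic values at least -0.44, so that arm did not rest on 1 array. It met the rule in 14 of the 15 fits that left out an array. The 1st hypoxia ketamine array was the low one of its group for A_70_P062991 and A_70_P031911, and the 2nd was for A_70_P011946. The part of single arrays in these patterns was not tested. A_70_P063121 was low on 4 arrays, the 1st and 3rd of both hypoxic groups, at -9.73 to -8.15, against -5.49 to -4.19 on the others. These 4 are the hypoxic arrays of the 2nd slide, and the differences were -0.03 and 0.10 within the 1st slide and -2.80 and -4.68 within the 2nd.

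Such spread was wider among the members than among unnamed probes at large. The rule takes mean differences with no account of spread, and the unnamed probes were not matched to the members in signal. The values are therefore a description. The hypoxic values of a probe spanned 3 log2 units or more for 24 members, against 4.25% of unnamed probes, and the normoxic values did so for 12 members, against 1.2%. The pooled within-group SD of the median member was 0.41 over normoxic and 0.64 over hypoxic arrays, against 0.21 and 0.28 for the median unnamed probe. Hypoxic values were the more variable for 77 members and for 69.1% of unnamed probes.

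The members were dim on the whole. Their median signal was -3.44 against -1.69 for unnamed probes, with a range of -7.83 to 4.47, and 45 members lay below the unnamed lower quartile of -4.05. They were well above background on all 15 arrays for 60 members, against 86.3% of unnamed probes, on 10 to 14 arrays for 22 and on 3 to 9 arrays for 18. All normoxic arrays were well above background for 80 members and all hypoxic arrays for 60. On no hypoxia vehicle array were 10 members well above background, on no hypoxia ketamine array 6, and on no hypoxic array 3, namely A_70_P011986, A_70_P065796 and A_70_P048666. For a group with no array above background a difference against a floor is given. The floor is the lowest signal well above background on each array or the probe's own, whichever is higher. It comes from the dimmest flagged probe of the array and not from the member's own detection limit, so it gives no strict bound. Against that floor A_70_P032321 was 3.27-fold lower in hypoxia with vehicle, A_70_P000721 1.77-fold lower and A_70_P065796 1.17-fold lower. A_70_P011986 was 1.17-fold lower against it in hypoxia with ketamine. Under normexp the log2 differences of these probes were -0.59, -0.43 and -0.36 with vehicle, and 0.13 for A_70_P011986 with ketamine.

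How the background was taken mattered for these dim members. With normexp in place of the scanner's processed signal, the median difference of the 32 members brighter than the median unnamed probe went from -0.82 to -0.74 with vehicle and from -0.73 to -0.69 with ketamine. For the other 68 it went from -1.01 to -0.45 and from -0.82 to -0.06. Over all tested probes the median difference went from -0.05 to -0.11 with vehicle and from -0.02 to 0.09 with ketamine. Whether the change in the dim members is particular to them was not tested. Differences below 0 in both arms were left for 69 of 100 members under normexp, for 100 after quantile normalization and for 78 of the 79 that the authors' deposited value table holds.

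The libraries that the ESTs came from spread over many tissues, and no description that spells out the tissue named kidney. Adult fracture callus, the repair tissue of broken bone, gave 13 members, or 13% against 7.58% of unnamed probes. Efferent gastric lymph, which carries lymphocytes, gave 9 against 4.42%, rectum gave 7 against 3.53%, and Peyer's patch, a lymphoid tissue of the gut, gave 4 against 2.06%. A library known only by its code ONLN gave 9 against 13.7%, and one coded ONDC gave 6 against 12.4%. A library says where a clone was found and not where else its gene is expressed.

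The contrasts of ketamine with vehicle use the same 4 group means as the rule, so they are not independent of the choice of members and are also given as a description. In normoxia limma called 4 members at an unadjusted p of 0.05 or less, all lower with ketamine, where 2.71% of all tested probes were called in either direction and 1.76% lower. In hypoxia it called 5, with 3 lower and 2 higher, where 6.07% of all tested probes were called, 3.49% lower and 2.58% higher. After Benjamini-Hochberg adjustment in limma 0 members passed in either. The median differences with ketamine were -0.09 in normoxia, against -0.02 over all probes, and 0.04 in hypoxia, against 0.02.

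The members called lower in both ketamine contrasts were A_70_P048526, A_70_P040921 and A_70_P048506. A_70_P048526 (EE750952) read -0.55, -0.67 and -0.73 in normoxia with vehicle and -0.78, -1.21, -1.02 and -1.26 with ketamine. In hypoxia it read -0.94, -1.30, -1.49 and -1.54 with vehicle and -2.22, -1.74, -1.71 and -1.92 with ketamine. In each case every ketamine array was below every vehicle array, and the differences were -0.42 (SE 0.17) in normoxia and -0.58 (SE 0.16) in hypoxia. The normoxic call was lost without the 1st or 2nd vehicle array or the 2nd or 4th ketamine array. A_70_P040921 (EE799100) read -4.46, -4.07 and -4.89 in normoxia with vehicle and -4.98, -5.25, -5.52 and -5.58 with ketamine. In hypoxia it read -5.02, -5.35, -6.04 and -5.20 with vehicle and -5.93, -5.84, -5.98 and -6.58 with ketamine. The groups were apart in normoxia and overlapped through the 3rd hypoxia vehicle array, with differences of -0.86 (SE 0.27) and -0.68 (SE 0.25). The hypoxic call was lost without the 1st hypoxia vehicle array or the 4th hypoxia ketamine array. A_70_P048506 differed by -0.85 and -0.86, but its normoxic call held in only 5 of the 15 fits that left out an array. The other member called in normoxia, A_70_P051531, differed by -0.62 (SE 0.27), and this call held in 10 fits. A_70_P013251 was higher with ketamine in hypoxia by 0.33 (SE 0.15), a call that held in 3 of the 15.

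The interaction, the hypoxia difference with ketamine minus that with vehicle, is built from the 2 values the rule used, so no test of it is read for the members. limma called 1 member, where 3.15% of all tested probes were called and 2.05% in the same direction. A_70_P000721 (FE026375), from an efferent gastric lymph library, read -5.92, -6.27 and -6.22 in normoxia with vehicle and -6.69, -6.70, -6.15 and -6.35 with ketamine. In hypoxia it read -7.91, -7.49, -8.05 and -8.12 with vehicle and -7.02, -7.60, -7.33 and -6.87 with ketamine. Hypoxic arrays were below normoxic ones in both arms. The probe was well above background on all 7 normoxic arrays, on no hypoxia vehicle array and on 1 hypoxia ketamine array. Its hypoxic readings are therefore close to or within the background. In the vehicle arm it was 1.77-fold lower against the floor described above, which is no strict bound, and the order of the hypoxic groups cannot be read. Under normexp its hypoxia difference was -0.43 with vehicle and 0.23 with ketamine.

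Array quality and cell markers give the setting for these values. Between 75.6% and 85.2% of probes were well above background on each array, the 75th percentile lay between 1063.77 and 1424.9 units, and RNA integrity numbers were 7.7 to 9.1 per the labels. The lowest signal well above background was 10.9 units or less on 14 arrays and 18.7 on the 4th hypoxia ketamine array. The arrays with placental lactogen were the 1st and 2nd of normoxia with ketamine and the 2nd of hypoxia with ketamine, and the part of that signal in the members' values was not tested. Of 9 tubule marker genes 3 were on the array and all were tested, with 6 probes. Their summed linear signal, relative to the 75th percentile, was 4.71 to 6.89 over normoxic and 5.97 to 10.9 over hypoxic arrays. Of the 6 probes 2 were lower with vehicle and 4 with ketamine, with median differences of 0.49 and -0.1. Of 8 monocyte and macrophage genes 4 were on the array, with 6 probes of which 0 were lower in either arm. Their sum was 1.43 to 1.72 over normoxic and 1.89 to 5.92 over hypoxic arrays. Of 8 fibroblast and matrix genes 3 were on the array, with 7 probes whose median differences were -0.57 and -0.17. Their sum was 34.4 to 53.2 over normoxic and 31.1 to 48.1 over hypoxic arrays. The sums of the podocyte, endothelium, T cell, erythroid, steroidogenic and placental lists overlapped between normoxic and hypoxic arrays as well. Neutrophil and nephron progenitor markers were represented by 0 genes, and the part of any cell type in the members' values was not tested.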

How the data were processed

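Each of 15 arrays was scanned once in 1 colour (Cy3), and the deposited files hold spot intensity as written by Agilent Feature Extraction, per the file headers. The processed intensity was already background-subtracted and detrended within the array, per the file headers. From it the log2 signal minus the array's log2 75th percentile was computed. The authors' deposited table of log2 values, made with limma per the submitters' processing notes, served as an alternative. It holds 11705 probes with column medians of 8.977 to 8.994. Its columns could not be set against the arrays with certainty: 12 of 15 resembled another array more than their own, and all 15 resembled most an array of their own group. How it was centred and background-corrected is not stated in the labels.

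Probes well above background on at least 3 arrays were fitted with limma 3.58.1 (R 4.3.3) on all 15 arrays with 4 group means (11 residual and 2.4 prior degrees of freedom). The study's threshold, an unadjusted p of 0.05, and Benjamini-Hochberg adjustment over all 12927 tested probes were both used. The code was tested on simulated data. Counts and sequences were compiled in Python 3.11.15. Nothing states that the fetuses of a group came from separate ewes, and p-values measure the spread between these arrays. Their number limits the precision, and no spot of a member was saturated.

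The members and the lists of related probes and cell markers were chosen with earlier results of these data known. Named members were the product-named ones, the 3 lowest of the others, up to 10 without overlap in either arm, the 8 brightest, those with the smallest p in each ketamine contrast, and those nearest the limit. Further ones are said to be picked after their values were seen. Alternatives were normexp (offset 50) on mean and background intensity, quantile normalization, the deposited table, detection on all 15 arrays, no filter on dim probes, a floor at the lowest signal well above background, each slide alone, the slide and the replicate number as blocks, only the groups compared, other limits, each array left out, and the 3 arrays with placental lactogen left out. Same-numbered arrays of different groups had correlations of their deviations from -0.292 to 0.37 (median 0.0376, 21 pairs), so the numbers were not taken as pairs.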

Additional observations from a re-analysis of the deposited data

Results flagged for a closer look

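Among 123 groups of 4 arrays examined over the named members, 7 held an array that stood far from the other 3 by Dixon's criterion. Chance gives about 1 in 20 for groups that were not picked. Some of these members, A_70_P011946 and A_70_P042436 among them, were picked after their values were seen. That rate is therefore no baseline for this count. A_70_P011946 read -6.82 on the 2nd hypoxia vehicle array, against -1.78 to -1.13 on the other 3. It read -7.97 on the 2nd hypoxia ketamine array, against -1.51 to -0.38. A_70_P042436 read -6.45 on the 4th normoxia ketamine array, against -4.79 to -4.60, and -9.10 on the 3rd hypoxia vehicle array, against -5.93 to -5.34. A_70_P009476 read -5.97 on the 2nd hypoxia ketamine array, against -4.53 to -4.29. A_70_P066676 read 3.16 on the 3rd hypoxia ketamine array, against 3.99 to 4.08. A_70_P019116 read -0.47 on the 4th hypoxia vehicle array, against 0.07 to 0.15.

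The fitted hypoxia differences of A_70_P000721 in the ketamine and vehicle arms were 1.02 apart. The members were selected on these same differences, so no test of it is read. The probe was well above background on 0 of 4 hypoxia vehicle arrays and 1 of 4 hypoxia ketamine arrays, so the value sets readings within the background against each other and gives no size of a difference. Under normexp limma called 0 members for the interaction at an unadjusted p of 0.05.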

How the results depend on the processing

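Over 27 settings the direction of the 82 hypoxia differences of 41 named probes was kept except as follows. Under normexp 11 of 82 were above 0, among the deposited values 1 of 70, on the 1st slide alone 1, on the 2nd slide alone 2, and 1 each without the 4th hypoxia vehicle array, without the 2nd hypoxia ketamine array and without the 3 arrays with placental lactogen. Called members that turned sign in the ketamine arm under normexp were A_70_P000721 at 0.23, A_70_P011986 at 0.13, A_70_P032321 at 0.13, A_70_P040921 at 0.11 and A_70_P048506 at 0.04, and on the 2nd slide alone A_70_P019706 at 0.33. The cause was not tested.

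Of the members, normexp called 37 in the vehicle arm and 29 in the ketamine arm, the 2nd slide alone 20 and 27, and the fit without the 3 arrays with placental lactogen 24 in the ketamine arm. For ketamine in normoxia the count was 0 under normexp, 2 after quantile normalization, 2 with detection on all 15 arrays, 1 on the 2nd slide and 12 with only the groups compared. For ketamine in hypoxia it was 1 under normexp, 2 in the deposited table, 2 with detection on all arrays, 9 on the 2nd slide and 8 without the lactogen arrays. The interaction count was 0 under normexp, in the deposited table and with detection on all arrays, 2 after quantile normalization, with the slide as a block, on the 1st slide and without the lactogen arrays, and 7 on the 2nd slide. The share of all tested probes called was counted for the main fit only. The counts of called members under other settings, and below without 1 array, therefore stand without a share. Whether a change in them is particular to the members was not tested. The rule found 31 probes under normexp, 40 in the deposited table, 60 with detection on all arrays, 223 on the 1st slide, 190 at a limit of -0.5, 41 at -0.8 and 23 at -1. Of the 100 members, 30 met the rule under normexp, 98 after quantile normalization, 21 on both slides and 30 in all 15 fits without 1 array.

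Without 1 array at a time the vehicle median ran from -1.04 to -0.85 and the ketamine median from -0.92 to -0.75. Counts of called members ran from 44 to 59 with vehicle and from 40 to 61 with ketamine, from 1 to 6 for ketamine in normoxia, from 4 to 13 in hypoxia and from 1 to 2 for the interaction. The hypoxia count was 13 without the 4th hypoxia vehicle array, 11 without the 3rd and 10 without the 2nd hypoxia ketamine array. The rule found 90 to 149 probes. With the replicate number as a block the counts were 57, 60, 3, 4 and 1 and the medians -0.93 and -0.80. Precision is limited by 15 arrays and, for the 40 members not well above background everywhere, by the background.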
